A study of Homo sapiens with 42 samples.

Results

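HL-60 cells carrying the first of 2 shRNAs against EZH2 (shEZH2#1) were compared with HL-60 cells carrying a non-targeting shRNA (Scr), both in the presence of all-trans retinoic acid (ATRA). The arrays were chosen by their treatment label alone, EZH2_KD_shEZH2#1+ATRA against non-targeting_control_Scr+ATRA, which gave 3 arrays for each group and 6 of the 42 arrays in the series. HL-60 is an established human acute myeloid leukemia line of promyelocyte-like cells with an amplified MYC gene. In both groups the shRNA was delivered with a lentiviral vector that also carries puromycin resistance, the cells were selected with puromycin and expanded as a pool, and 0.1 µM ATRA was given for 3 days, a dose that the study chose as sub-optimal for differentiation. Neither group received an inhibitor. Other groups of 3 arrays each serve below only for comparison: cells with the other hairpin and ATRA (shEZH2#2+ATRA), untransduced cells with ATRA (WT+ATRA), and shEZH2#1 and Scr cells without ATRA. The knockdown leaves part of the EZH2 transcript in place, and a difference seen with 1 hairpin cannot be told apart from an effect of that hairpin on other transcripts. Expression in total RNA was measured with Affymetrix arrays of the Human Gene 1.0 ST type, and values are log2 levels, so that a difference of 1 is a 2-fold change.

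EZH2 is the catalytic subunit of Polycomb Repressive Complex 2 (PRC2), which methylates lysine 27 of histone H3 and keeps genes of other lineages and later stages silent. SUZ12 and EED hold the complex together, and EZH1 is a second catalytic subunit. ATRA binds the retinoic acid receptors, which then exchange corepressors for coactivators, and in HL-60 cells it drives maturation toward granulocytes. Primary granules with antimicrobial proteins are laid down at the promyelocyte stage. During later maturation, cells put the integrin chain CD11b, encoded by ITGAM, and receptors for pathogens, complement and antibodies on their surface. They also leave the cell cycle.

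The 6 arrays compared had medians over all probe sets between 5.34 and 5.51, and among them Scr+ATRA replicate 3 stood apart. It is 1 of 6 knockdown arrays with a high median (5.47 to 5.56) and a high mean level of 192 small nucleolar RNA genes (7.83 to 8.09), against medians of 5.31 to 5.44 and small nucleolar RNA levels of 7.23 to 7.65 on the other 18 knockdown arrays. Call counts and medians of gene lists stated below that moved by over 1.5 times without this array are given without it as well. Markers of the promyelocyte stage were present, among them MPO (13.21 to 13.35 with shEZH2#1+ATRA and 12.89 to 13.10 with Scr+ATRA), SPI1, CEBPA and MYB, while CD14, FCGR3A, CD3E, MS4A1, HBB and ITGA2B stayed at or below 4.73 on all 6 arrays. CSF1R, CD79A and PF4 reached 5.45, 5.34 and 5.98, and the eosinophil genes EPX and PRG2, described below, reached 7.19 and 7.37 with shEZH2#1+ATRA, against 4.17 and 5.50 with Scr+ATRA. The number of arrays limits the precision, and in bulk RNA a change in the share of maturing cells cannot be told apart from a change of level within each cell.

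EZH2 itself stood at 8.76, 9.18 and 9.18 with shEZH2#1+ATRA, against 9.93, 10.04 and 10.03 with Scr+ATRA. Every knockdown array lay below every control array. The log2 fold change was -0.96 (SE 0.15, limma, adjusted p = 0.000294), which leaves 51.5% of the control level, and an exact two-sided permutation test of 3 against 3 gave p = 0.1, the smallest that this design allows. EZH1, the other catalytic subunit, read 7.74, 7.58 and 7.29 against 7.93, 7.58 and 7.60, and SUZ12 read 11.37, 11.47 and 11.57 against 11.48, 11.46 and 11.59. Both ranges overlapped between the groups, and neither gene was called (log2 fold changes -0.17 and -0.04). Of 11 PRC2 subunits and accessory proteins above the level bound explained below, EZH2 was the 1 called, and of 12 PRC1 subunits above it none was called, with 2 lower and 0 higher at an unadjusted p under 0.05.

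A gene was called when its adjusted p was 0.05 or less, its fold change at least 1.3 and its mean over the 42 arrays in the top 40% of genes (a log2 level of 6.88 or more). Of 7367 genes above that level bound, 374 were called (5.08%), 252 of them higher (3.42%) and 122 lower (1.66%) with shEZH2#1+ATRA than with Scr+ATRA. Of the higher genes 76 changed at least 2-fold, against 7 of the lower genes. The groups did not overlap for 368 of the 374 called genes, and for 30.5% of all genes above the bound. Another 139 genes passed the p and fold thresholds upward and 35 downward but lay below the level bound, and 55 of these higher genes were above the bound in the shEZH2#1+ATRA arrays taken alone. The counts moved with single arrays: without Scr+ATRA replicate 3, 148 genes were called, 137 of them among the 374, and the share of higher calls was 52.7% instead of 67.4%. Leaving out shEZH2#1+ATRA replicates 1, 2 or 3 gave 213, 202 or 214 calls.

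**Figure D1:**
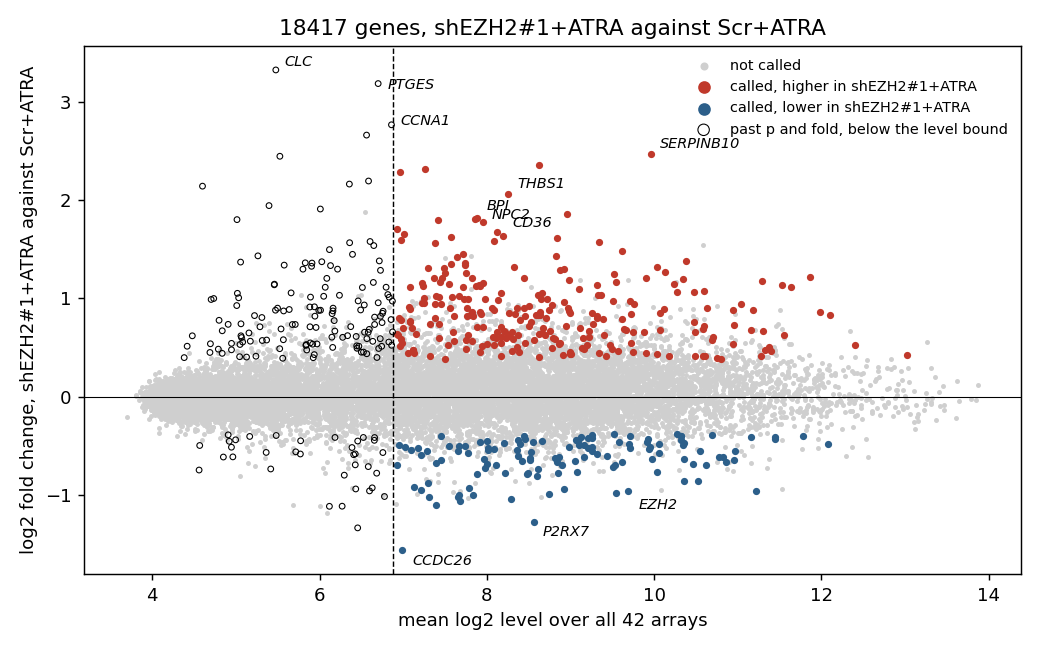
Log2 fold change of shEZH2#1+ATRA against Scr+ATRA (vertical) by mean log2 level over all 42 arrays (horizontal) for 18417 genes, with the level bound of 6.88 as a dashed line. Called genes are red (252 higher) or blue (122 lower), and open circles are the 139 higher and 35 lower genes that passed the p and fold thresholds below the bound, CLC and PTGES at the top among them.

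Among the genes of largest rise, SERPINB10, a serine protease inhibitor of myeloid precursors, stood at 10.43, 10.33 and 8.93 with shEZH2#1+ATRA, against 6.97, 7.96 and 7.34 with Scr+ATRA. Replicate 3 was the lowest of the knockdown arrays and still lay above all control arrays. Its log2 fold change was 2.47 (SE 0.44, adjusted p = 0.000839). ATP6V1C2, an isoform of the C subunit of the proton pump that acidifies endosomes and lysosomes, was tight in both groups, with 8.82, 8.70 and 8.36 against 6.46, 6.61 and 5.96 (log2 fold change 2.28, SE 0.26, adjusted p = 3.88e-06). SLCO4C1, an organic anion transporter, read 10.08, 10.27 and 9.80 against 7.54, 8.30 and 7.23. Its log2 fold change of 2.36 (SE 0.68) passed at an adjusted p of 0.0491, and the call was lost when any of the arrays but Scr+ATRA replicate 2 was left out. The cytidine deaminase APOBEC3B rose by 1.80 (SE 0.29, adjusted p = 0.000254) and SUCNR1, the receptor for succinate, by 1.86 (SE 0.39, adjusted p = 0.00473). Both had no overlap, which the choice of the largest rises required. IGFBP7, a secreted binder of insulin-like growth factors, rose by 1.81 (adjusted p = 0.0156), a call lost without shEZH2#1+ATRA replicate 1, Scr+ATRA replicate 1 or Scr+ATRA replicate 3.

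Integrins and other adhesion genes held the highest share of calls among the lists. Of 22 members above the level bound, 9 rose (40.9%, against 3.42% of all genes), none fell, and the median log2 fold change was 0.57, against 0.06 over all genes above the bound. Without Scr+ATRA replicate 3 the list still had 8 higher calls. ITGAM, the CD11b chain of the complement receptor CR3, stood at 8.28, 8.14 and 7.87 with shEZH2#1+ATRA, against 6.35, 6.69 and 6.44 with Scr+ATRA. The groups lay more than 1 log2 unit apart, and the log2 fold change was 1.60 (SE 0.28, adjusted p = 0.000761), a call kept when any 1 array was left out. THBS1, the matrix protein thrombospondin 1, read 11.43, 10.87 and 10.53 against 8.86, 9.00 and 8.76 (log2 fold change 2.07, SE 0.42, adjusted p = 0.00396). ITGB7, an integrin beta chain that pairs with the alpha 4 chain, read 8.99, 8.79 and 8.79 against 7.02, 7.74 and 6.85 (log2 fold change 1.65). That partner, ITGA4, rose by 0.98 (adjusted p = 0.00195), and ITGA5, an alpha chain of the fibronectin receptor, by 1.14 (adjusted p = 0.0103), although the ITGA5 call was lost without shEZH2#1+ATRA replicate 3 or Scr+ATRA replicate 3. PECAM1, a homophilic adhesion molecule of leukocytes and endothelium, rose by 1.63 (adjusted p = 0.00141). LGALS1, ANXA3 and ANXA1, a galectin and a pair of annexins that bind cell surface sugars or membranes, rose by 1.48, 1.35 and 1.22. ITGB2, the beta chain with which ITGAM pairs, was not called (log2 fold change 0.35, adjusted p = 0.23), and ITGB1, ITGAL and ICAM3 lay between -0.23 and 0.03.

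**Figure D2:**
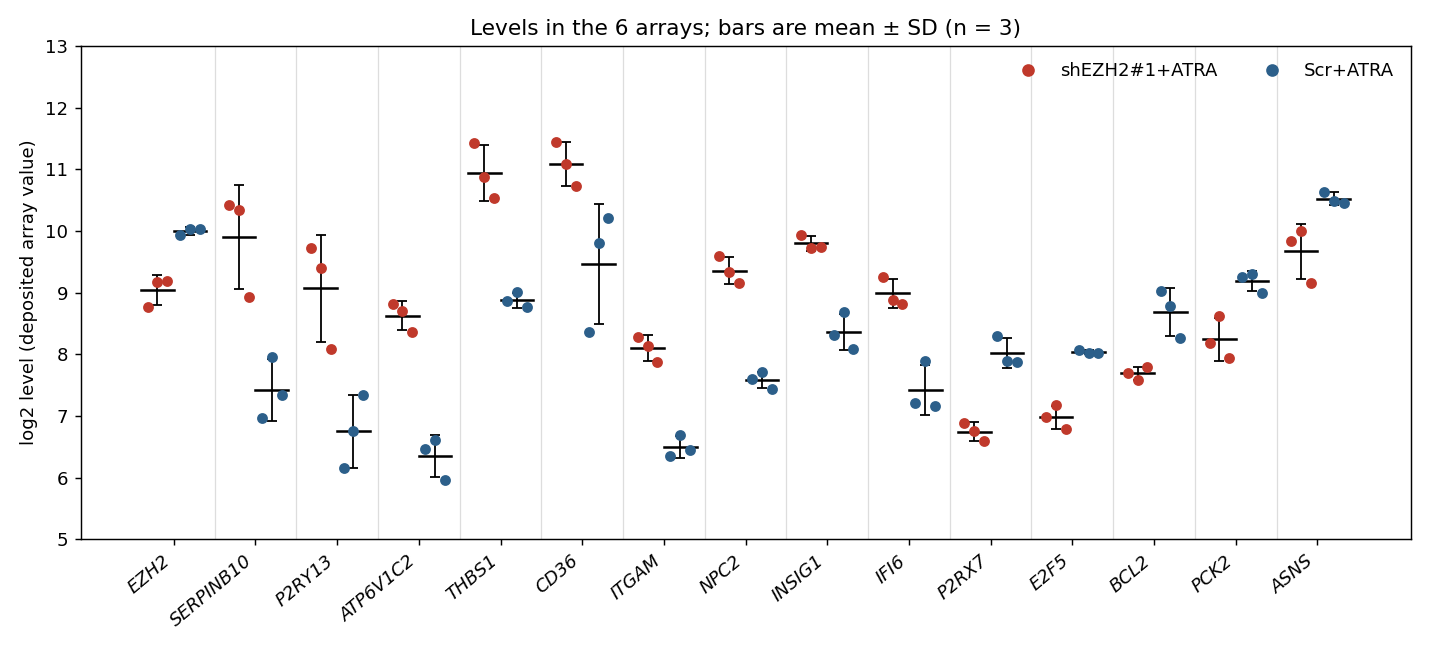
Log2 level of 15 genes on each of the 3 shEZH2#1+ATRA arrays (red) and the 3 Scr+ATRA arrays (blue), with bars for mean ± SD. EZH2 and the 5 genes at the right are lower in shEZH2#1+ATRA, and the other genes are higher. In none of the 15 do the groups overlap, which the naming rule required of the largest rises and falls among them.

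Of 26 myeloid maturation genes above the level bound, 5 rose (19.2%) and none fell, with a median log2 fold change of 0.41, and 24 of the 26 were positive. TYROBP, an adaptor that passes on signals of activating myeloid receptors, read 10.61, 10.49 and 10.18 with shEZH2#1+ATRA, against 8.74, 9.20 and 8.49 with Scr+ATRA. Its groups did not overlap (log2 fold change 1.62, SE 0.39, adjusted p = 0.0162), but the call was lost without any 1 of 4 arrays, Scr+ATRA replicate 3 among them. CD36, a scavenger receptor for oxidized lipids and thrombospondin, read 11.45, 11.09 and 10.74 against 8.36, 9.81 and 10.21. Scr+ATRA replicate 1 was far below the other control arrays, and the CD36 call (log2 fold change 1.63, adjusted p = 0.0162) was lost without it or without shEZH2#1+ATRA replicate 1 or 2. FCER1G, the signaling chain shared by Fc receptors, rose by 1.25 (adjusted p = 0.0113, lost without shEZH2#1+ATRA replicate 1 or Scr+ATRA replicate 3) and CD68, a glycoprotein of the endosomes of phagocytes, by 1.10 (adjusted p = 0.000592). The list's count ran between 2 calls without shEZH2#1+ATRA replicate 1 and 8 without Scr+ATRA replicate 2, and was 3 without Scr+ATRA replicate 3. CLEC4D, a C-type lectin receptor that pairs with FCER1G, is outside the list and stood at 8.58, 8.27 and 7.17 against 6.26, 6.29 and 6.35 (log2 fold change 1.71, adjusted p = 0.00529), a call lost without shEZH2#1+ATRA replicate 1. The secondary and tertiary granule list had 5 genes above the bound and none was called, with 1 higher and 1 lower at an unadjusted p under 0.05. Of 8 direct or well-known retinoic acid targets above the bound none was called either, with 2 higher and 1 lower at an unadjusted p under 0.05 and a median of 0.28.

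All 10 members of the primary granule list above the bound were positive, and 2 of them rose (20%, against 3.42% of all genes). They were BPI, the bactericidal protein that binds endotoxin of gram-negative bacteria, and SERPINB10. The latter, the protease inhibitor described above, is on the list but is not itself a granule protein. Without Scr+ATRA replicate 3 the 1 call left was that of SERPINB10. BPI stood at 10.80, 10.65 and 8.78 with shEZH2#1+ATRA, against 8.27, 8.47 and 8.00 with Scr+ATRA. Replicate 3 of the knockdown lay only slightly above the highest control array, and the call (log2 fold change 1.82, SE 0.46, adjusted p = 0.0198) was lost without any 1 of 4 arrays. For the proteases ELANE, CTSG and PRTN3 the log2 fold changes were 0.54, 0.67 and 0.52, none of them called.

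Genes of the lysosome, the compartment that degrades engulfed and worn-out material, were positive in 22 of 22 members above the bound, with a median log2 fold change of 0.49. Of these, 5 rose (22.7%) and none fell. NPC2, which carries cholesterol out of the lysosome, stood at 9.59, 9.33 and 9.15 with shEZH2#1+ATRA, against 7.59, 7.71 and 7.44 with Scr+ATRA. The spread within each group was small beside the log2 fold change of 1.77 (SE 0.22, adjusted p = 6.61e-06), and no array decided the call. CTSD, the aspartic protease cathepsin D, read 11.62, 11.59 and 11.16 against 10.17, 10.61 and 9.78 (log2 fold change 1.27, SE 0.33, adjusted p = 0.0277). GRN, which encodes progranulin, rose by 0.90, GUSB, the enzyme beta-glucuronidase, by 0.83, and PSAP, the precursor of the saposins that activate sphingolipid hydrolases, by 0.61. The calls of CTSD and GRN were lost without Scr+ATRA replicate 3 and without each of 3 other arrays, while those of GUSB and PSAP were kept without any 1 array. The list's count ran between 3 and 7 when arrays were left out.

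The enzymes of sterol and fatty acid synthesis had the highest median of the lists with more than 5 members above the bound, 0.78, and 20 of 20 such members were positive. At an unadjusted p under 0.05, 15 of the 20 were higher, and 5 were called higher (25.0%). INSIG1, the membrane protein that holds the sterol sensor SCAP in the endoplasmic reticulum, stood at 9.93, 9.72 and 9.74 with shEZH2#1+ATRA, against 8.31, 8.68 and 8.09 with Scr+ATRA. All knockdown arrays lay at least 1 log2 unit above the control arrays (log2 fold change 1.44, SE 0.31, adjusted p = 0.00699). DHCR7, which makes cholesterol in the last step of its synthesis, read 10.54, 10.15 and 10.03 against 8.67, 9.28 and 8.07 (log2 fold change 1.57, SE 0.43, adjusted p = 0.0353). HMGCS1, an early enzyme of the mevalonate pathway, rose by 1.07, LSS, which closes the sterol rings, by 0.95, and SCD, which puts a double bond into fatty acids, by 0.89. These calls rested on nearly every array. Without shEZH2#1+ATRA replicates 1, 2 or 3, 1, 1 or 2 of the 20 genes were called, without Scr+ATRA replicates 1, 2 or 3, 1, 7 or 0 were called, and the median stayed between 0.62 and 0.89. MVK and MVD, a pair of mevalonate pathway enzymes below the bound, passed the p and fold thresholds with log2 fold changes of 1.11 and 0.56.

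The promoters of these genes are shown because sterol genes are known to be switched on by SREBP factors together with NF-Y, which binds the CCAAT box. Sequences are from RefSeq (GRCh38.p14), 250 bases before to 50 after the start, on the gene's strand, with each CCAAT box in capitals (ATTGG where it lies on the opposite strand). INSIG1 is at chr7:155297628-155297927 (+), LSS at chr21:46228725-46229024 (-) and SCD at chr10:100346983-100347282 (+).
INSIG1: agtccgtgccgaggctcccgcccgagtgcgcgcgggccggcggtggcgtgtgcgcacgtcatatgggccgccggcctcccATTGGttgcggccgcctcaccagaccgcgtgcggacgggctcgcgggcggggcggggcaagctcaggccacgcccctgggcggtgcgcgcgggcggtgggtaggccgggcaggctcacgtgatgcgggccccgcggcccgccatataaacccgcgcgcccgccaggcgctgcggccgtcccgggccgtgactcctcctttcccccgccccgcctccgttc
LSS: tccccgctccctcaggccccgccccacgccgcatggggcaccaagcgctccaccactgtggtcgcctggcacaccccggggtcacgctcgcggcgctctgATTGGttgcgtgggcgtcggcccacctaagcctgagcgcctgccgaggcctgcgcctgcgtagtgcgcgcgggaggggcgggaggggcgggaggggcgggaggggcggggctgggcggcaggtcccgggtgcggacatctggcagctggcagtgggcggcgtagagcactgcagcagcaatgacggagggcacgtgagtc
SCD: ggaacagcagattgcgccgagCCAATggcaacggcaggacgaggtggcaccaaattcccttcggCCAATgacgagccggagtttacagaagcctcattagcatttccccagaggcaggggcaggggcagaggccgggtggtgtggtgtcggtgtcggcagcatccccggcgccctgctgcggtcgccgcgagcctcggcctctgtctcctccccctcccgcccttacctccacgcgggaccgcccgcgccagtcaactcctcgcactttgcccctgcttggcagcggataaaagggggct
The box begins 170 bases before the start of INSIG1, 150 before that of LSS, and 229 and 186 before that of SCD. The letters CCAAT, searched on both strands, were in a promoter of 5 of the 5 called sterol genes and of 16 of the 18 list members above the bound that matched the promoter table (88.9%). They were in 44.4% of 6115 matched genes above the bound and in 34.6% of all 35116 promoters. The letters TCACNCCAC, a form of the SREBP element, were in 2 of the 18 (11.1%), against 1.32% of the genes above the bound and 1.13% of all promoters, and in none of the called 5. The same was done for the lysosome with GTCACGTG, the core of the element bound by TFEB, which was in 3 of 16 matched members (18.8%), against 6.13% of the genes above the bound. Of the called lysosome genes CTSD held it, 47 bases before its start at chr11:1763878-1764177 (-), shown with the element in capitals on the opposite strand.
CTSD: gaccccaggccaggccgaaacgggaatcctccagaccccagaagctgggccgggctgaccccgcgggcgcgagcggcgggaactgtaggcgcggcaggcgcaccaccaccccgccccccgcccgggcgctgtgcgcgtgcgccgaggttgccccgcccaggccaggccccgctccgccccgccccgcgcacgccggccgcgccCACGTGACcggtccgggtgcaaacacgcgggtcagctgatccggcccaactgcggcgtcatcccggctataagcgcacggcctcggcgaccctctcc
A match describes the letters only, and binding was not measured in these arrays.

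**Figure D3:**
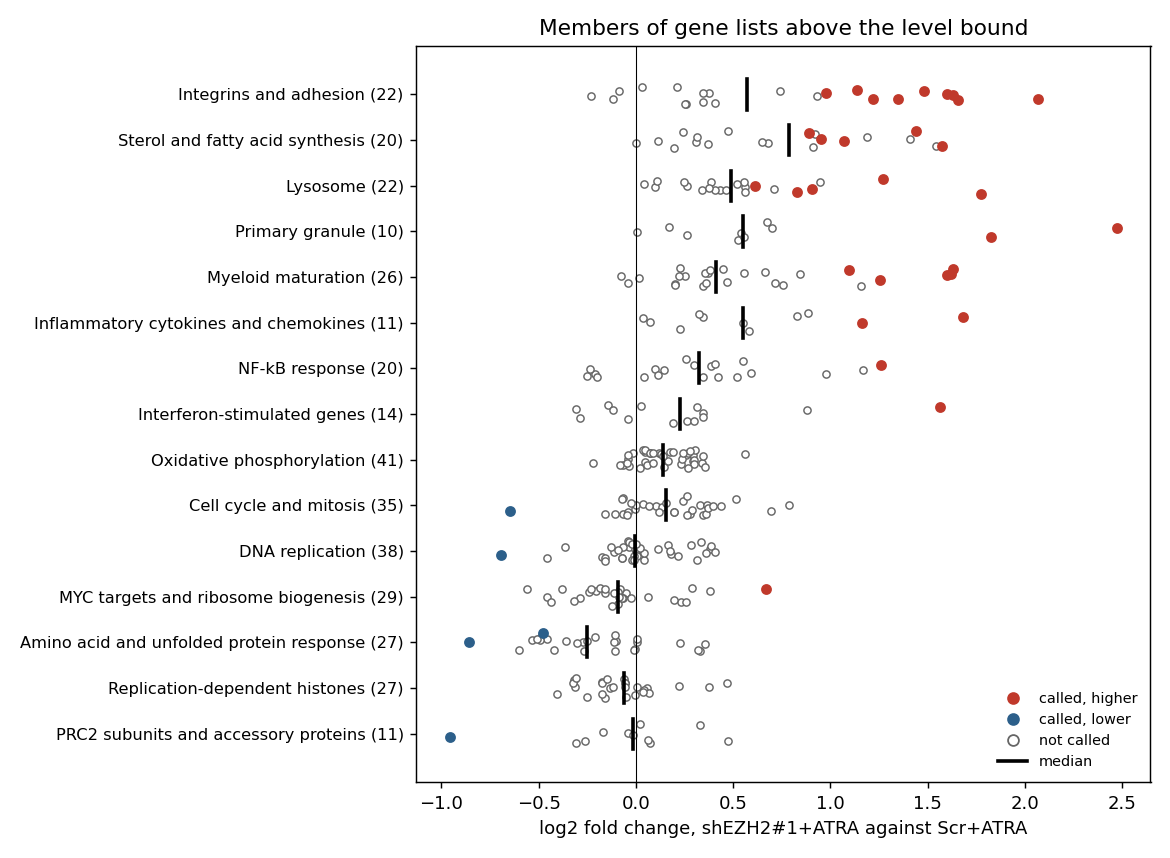
Log2 fold change of shEZH2#1+ATRA against Scr+ATRA for the members above the level bound (number in parentheses) of 15 gene lists, with called genes filled (red higher, blue lower), other members open and a black bar at each median. The adhesion, sterol, lysosome, primary granule, myeloid maturation, cytokine, NF-kB and oxidative phosphorylation lists lie mostly right of 0. So, less strongly, do the interferon and cell cycle lists. The amino acid and unfolded protein, MYC target and histone lists lie mostly left of it.

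Of 11 inflammatory cytokine genes above the bound, 2 rose (18.2%, against 3.42% of all genes), with 0 called without Scr+ATRA replicate 3. They were TNFSF13B, the B cell survival factor BAFF, with 10.35, 10.12 and 10.26 in shEZH2#1+ATRA against 8.90, 9.53 and 8.81 in Scr+ATRA (log2 fold change 1.16, adjusted p = 0.00538), and TNFSF10, the death ligand TRAIL, with 9.33, 8.99 and 8.55 against 6.57, 7.87 and 7.40 (log2 fold change 1.68, adjusted p = 0.0417). The groups were apart for both, but the TNFSF10 call was lost without any of 5 arrays and the TNFSF13B call without Scr+ATRA replicate 3. CXCL8, TNF and CCL2, chemokines and a cytokine of inflammation, had log2 fold changes of 0.03, 0.34 and 0.88, none called. IFI6, an interferon-induced protein of the mitochondrial and reticular membranes, was the 1 called of 14 interferon-stimulated genes above the bound (7.14%, near the share over all genes), with 9.26, 8.89 and 8.81 against 7.21, 7.89 and 7.17 (log2 fold change 1.56, SE 0.27, adjusted p = 0.000592). IFI35, HERC6 and OAS3, below the bound, passed the p and fold thresholds with 0.85, 0.71 and 0.54. The share was also near that of all genes for 20 NF-kB response genes, of which 1 was called. This was CYTIP, a scaffold protein induced by cytokines (log2 fold change 1.26, adjusted p = 0.0353). Its call was lost without any of 5 arrays, and without Scr+ATRA replicate 3 the list had 0 calls.

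Of 14 purinergic and chemoattractant receptor genes above the bound 1 was called higher and 1 lower, against 3.42% and 1.66% of all genes. P2RY13, a receptor for ADP, stood at 9.73, 9.40 and 8.08 with shEZH2#1+ATRA, against 6.16, 6.75 and 7.34 with Scr+ATRA. The groups were apart by less than 1 log2 unit at their closest arrays, and the log2 fold change was 2.32 (SE 0.42, adjusted p = 0.000983). P2RX7, the ATP-gated channel that starts the inflammasome in myeloid cells, read 6.89, 6.75 and 6.59 against 8.30, 7.90 and 7.87 (log2 fold change -1.27, SE 0.29, adjusted p = 0.0112). Only CCDC26 fell further among the called genes, and the P2RX7 call was lost without Scr+ATRA replicate 1 or shEZH2#1+ATRA replicate 3. CXCR2 and CX3CR1, chemokine receptors below the bound, passed the p and fold thresholds with 1.20 and 1.33.

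The largest fall was that of CCDC26, a long non-coding RNA of chromosome 8 known from myeloid leukemia, with 4.99, 5.65 and 6.08 in shEZH2#1+ATRA against 7.21, 6.66 and 7.54 in Scr+ATRA (log2 fold change -1.56, SE 0.33, adjusted p = 0.00478). The call was lost without shEZH2#1+ATRA replicate 1 or Scr+ATRA replicate 3. E2F5, a repressor of the E2F family, read 6.98, 7.17 and 6.78 against 8.07, 8.02 and 8.02 (log2 fold change -1.06, SE 0.20, adjusted p = 0.00143). BCL2, the antiapoptotic protein that venetoclax targets, read 7.69, 7.58 and 7.80 against 9.03, 8.78 and 8.26 (log2 fold change -0.99, SE 0.26, adjusted p = 0.0246). Its groups did not overlap, but 5 of the 6 single-array omissions ended the call. CCND2, the D-type cyclin that starts the G1 phase, fell by 0.65 (adjusted p = 0.0133), and PRIM1, the catalytic subunit of DNA primase, by 0.70 (adjusted p = 0.0157). The CCND2 call was lost without Scr+ATRA replicate 1 or shEZH2#1+ATRA replicate 3, and the PRIM1 call without shEZH2#1+ATRA replicate 1. Each was the 1 called gene of its list, of 35 cell cycle and 38 DNA replication genes above the bound. These shares are near the 1.66% of all genes called lower. The list medians were 0.15 and -0.01, 0.04 and -0.11 without Scr+ATRA replicate 3, and 0.26 and 0.08 without Scr+ATRA replicate 2. C17orf75, WDR35, a subunit of the transport complex of cilia, and CRIM1, a membrane protein that binds bone morphogenetic proteins, fell by 1.02, 1.02 and 1.00, each kept when any 1 array was left out, as did SPNS3, a transporter of the spinster family, by 1.10. RIDA, which clears reactive imines, fell by 1.00, a call that 5 single-array omissions ended.

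Of 27 members of the amino acid and unfolded protein list above the bound, 2 were called lower, against 1.66% of all genes, and none higher. In all 21 had a negative log2 fold change, 8 were lower and 1 higher at an unadjusted p under 0.05, and the median was -0.25, which became -0.15 without shEZH2#1+ATRA replicate 3 or Scr+ATRA replicate 2. ASNS, which makes asparagine, stood at 9.84, 10.00 and 9.16 with shEZH2#1+ATRA, against 10.64, 10.48 and 10.46 with Scr+ATRA (log2 fold change -0.86, SE 0.17, adjusted p = 0.00343). Replicate 3 was the lowest knockdown array and without it the call was lost. MTHFD2, the mitochondrial one-carbon enzyme, read 11.83, 11.81 and 11.61 against 12.23, 12.22 and 12.24 (log2 fold change -0.48, adjusted p = 0.00477), a small but tight difference. Outside the list, PCK2, the mitochondrial enzyme that makes phosphoenolpyruvate, read 8.17, 8.62 and 7.94 against 9.25, 9.31 and 9.00 (log2 fold change -0.94, SE 0.18, adjusted p = 0.00272). ALDH1L2, a mitochondrial folate enzyme, fell by 0.98, ASS1, which makes argininosuccinate on the way to arginine, by 0.96, and STC2, a secreted glycoprotein of stressed cells, by 0.95, and each of these 3 calls was lost without at least 1 array. These 4 genes were among the 15 largest falls.

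Several lists had no called gene above the bound: replication-dependent histones (27 genes, median -0.06), oxidative phosphorylation (41 genes, 0.14) and glycolysis (18 genes, 0.20). Without Scr+ATRA replicate 3 the medians were -0.14, 0.11 and 0.07, and without Scr+ATRA replicate 2 they were -0.02, 0.20 and 0.33. At an unadjusted p under 0.05 these lists had 1 higher and 3 lower, 6 higher and 0 lower, and 7 higher and 1 lower genes. Of 29 MYC targets and ribosome biogenesis genes 1 was called, and it was higher (3.45%, near the 3.42% of all genes). This was ODC1, the first enzyme of polyamine synthesis (log2 fold change 0.67, adjusted p = 0.000223). The list median was -0.09 (-0.22 without Scr+ATRA replicate 3 and -0.05 without Scr+ATRA replicate 2). MYC itself read 10.88, 11.06 and 10.64 against 11.40, 11.43 and 10.89 (log2 fold change -0.38, adjusted p = 0.583). Classic Polycomb targets among the developmental regulators, such as HOX, PAX and SOX genes, were measured for 29 genes, of which 27 lay below the level bound. None of the 29 passed the p and fold thresholds. Of 10 stem and progenitor genes above the bound 1 was called (10%), CD109, a surface protein of progenitor cells, which rose by 0.99 (adjusted p = 0.000656). Of 13 WNT signaling genes 2 were called higher (15.4%, against 3.42% of all genes). The repressor TLE4 and the kinase GSK3B rose by 0.49 and 0.46. LEF1, a transcription factor of that pathway, had a log2 fold change of -0.65 at an adjusted p of 0.0537. Without Scr+ATRA replicate 3, and likewise without shEZH2#1+ATRA replicate 3, both higher WNT calls were lost and LEF1 was called lower, the 1 call of the list. The histone methyltransferase genes EHMT1 and EHMT2 had log2 fold changes of -0.05 and -0.10, and EP300, KDM1A and KDM5B of 0.24, 0.03 and 0.05, none of them called. Of the other genes that the study names, SMYD2 (0.41, adjusted p = 0.0791), GPR65 (0.77, adjusted p = 0.176) and FCER2 (0.11) were not called either, and GATA2, MLLT3 and SLAMF7, below the bound, had 0.18, -0.02 and 0.16.

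Eosinophil granule genes lay below the level bound over the 42 arrays but were among the largest differences, and were picked for description after their values were seen. CLC, the Charcot-Leyden crystal protein of eosinophils and basophils, stood at 9.41, 8.15 and 6.77 with shEZH2#1+ATRA, against 4.72, 5.15 and 4.47 with Scr+ATRA. Its knockdown arrays spread over more than 2 log2 units and all lay above the control arrays (log2 fold change 3.33, SE 0.43, adjusted p = 1e-05). EPX, eosinophil peroxidase, read 7.19, 6.35 and 5.10 against 4.08, 4.17 and 3.96 (log2 fold change 2.14), and PRG2, the major basic protein of the granule, 7.37, 6.32 and 6.48 against 5.21, 5.50 and 5.37 (log2 fold change 1.36). Of the 11 measured genes of the eosinophil, basophil and mast cell list these were the 3 that passed the p and fold thresholds. The other 8, such as the receptor genes IL5RA, SIGLEC8 and FCER1A, lay between -0.16 and 0.18. The mean level of the list ran from 5.00 to 5.53 with shEZH2#1+ATRA and from 4.60 to 4.69 with Scr+ATRA, while the lymphoid list ran from 5.09 to 5.23 against 5.07 to 5.13, and the megakaryocyte and erythroid list from 4.77 to 4.82 against 4.79 to 4.88. The part of cells of another type in the differences above was not tested. CCNA1, the A-type cyclin of germ cells and myeloid leukemia, was also below the bound, with 8.94, 8.63 and 8.24 against 5.86, 6.24 and 5.40 (log2 fold change 2.77, adjusted p = 3.58e-05), as was CR1, the complement receptor CD35 (log2 fold change 2.66, adjusted p = 6.61e-06).

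The hairpins were set against each other with ATRA in an analysis without the shared control. Of 7367 genes 33 were called (0.448%), 24 higher (0.326%) and 9 lower (0.122%) with shEZH2#1+ATRA than with shEZH2#2+ATRA. EZH2 was at 8.76, 9.18 and 9.18 with shEZH2#1+ATRA and at 8.96, 9.57 and 9.64 with shEZH2#2+ATRA, and it was lower with shEZH2#1+ATRA in 3 of 3 same-numbered pairs. The difference of -0.35 (SE 0.15) was not called (adjusted p = 0.626), nor was it with the replicate number as a block (SE 0.10, adjusted p = 0.203), with unadjusted p-values of 0.029 and 0.00209. ATP6V1C2 read 8.82, 8.70 and 8.36 with shEZH2#1+ATRA, and its difference from shEZH2#2+ATRA was 2.14 (adjusted p = 1.64e-05). ELANE, neutrophil elastase, stood at 8.63, 8.39 and 8.10 with shEZH2#1+ATRA, against 6.89, 6.35 and 6.37 with shEZH2#2+ATRA (difference 1.84, SE 0.21, adjusted p = 6.33e-06). The other primary granule proteases CTSG and PRTN3 were also higher than with shEZH2#2+ATRA, by 1.59 and 1.48. Against Scr+ATRA, shEZH2#1+ATRA gave 0.54, 0.67 and 0.52 for ELANE, CTSG and PRTN3, none called. ELANE ran from 7.35 to 8.15 with Scr+ATRA, above the shEZH2#2+ATRA arrays. TFEC, a transcription factor of the family of TFEB (1.57), the ATP-gated channel P2RX1 (1.44), the complement protease CFD (1.30) and ITGA5 (1.21) were also higher than with shEZH2#2+ATRA. The haptoglobin gene HP, which encodes a hemoglobin binder of secondary granules, was lower, at 8.44, 7.48 and 7.60 against 11.28, 9.92 and 9.49 (difference -2.39, adjusted p = 0.015). SGMS2, which makes sphingomyelin, and ALOX5, the first enzyme of leukotriene synthesis, were lower by differences of -1.77 and -1.35. Among the other calls, NRG4 (1.62) and MLC1 (1.19) were higher, and NRP2 (-1.09), STOM (-0.78), PTPRCAP (-0.74), CDCA7 (-0.72), ATP8B2 (-0.70) and HBS1L (-0.55) lower. The calls of ATP6V1C2, ELANE, PRTN3 and SGMS2 were kept without any 1 array, and that of HP was lost without any of 3.

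Below the bound, CLC, EPX and PRG2 also passed the p and fold thresholds between the hairpins, with differences of 3.15, 2.24 and 1.44. CLC was at 5.44, 4.96 and 4.49 with shEZH2#2+ATRA, where 1 array lay above the highest Scr+ATRA array (5.15). In cells without ATRA, CLC stood at 7.71, 8.38 and 6.54 with shEZH2#1, against 4.77, 5.08 and 4.52 with Scr. CLC was thus higher with shEZH2#1 than with Scr both with and without ATRA. Without ATRA the mean level of the eosinophil, basophil and mast cell list ran from 5.37 to 5.75 with shEZH2#1 and from 4.66 to 4.96 with Scr. The array values of ITGAM gave log2 fold changes against Scr+ATRA of 1.60 for shEZH2#1+ATRA and 2.30 for shEZH2#2+ATRA, which share the 3 control arrays. Against those same arrays 155 genes were called for shEZH2#2+ATRA (2.1%), 95 higher (1.29%) and 60 lower (0.814%), and 91 of the 374 shEZH2#1+ATRA genes were also called there in the same direction. Likewise for THBS1 the 2 values were 2.07 and 1.87, for NPC2 1.77 and 1.11, and for INSIG1 1.44 and 0.50. For IFI6 they were 1.56 and 1.53, and for BCL2 -0.99 and -1.24. INSIG1 was not called with shEZH2#2+ATRA, nor were the sterol genes DHCR7 (1.08), HMGCS1 (0.25), LSS (0.50) and SCD (0.52). Of the 15 largest rises, SUCNR1 (0.27), ATP6V1C2 (0.15), APOBEC3B (0.66), PECAM1 (0.79), CLEC4D (0.66), IGFBP7 (0.68) and SLCO4C1 (2.20) were not called there. SERPINB10, P2RY13, BPI, CD36, TNFSF10, ITGB7, THBS1 and NPC2 were.

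**Figure D4:**
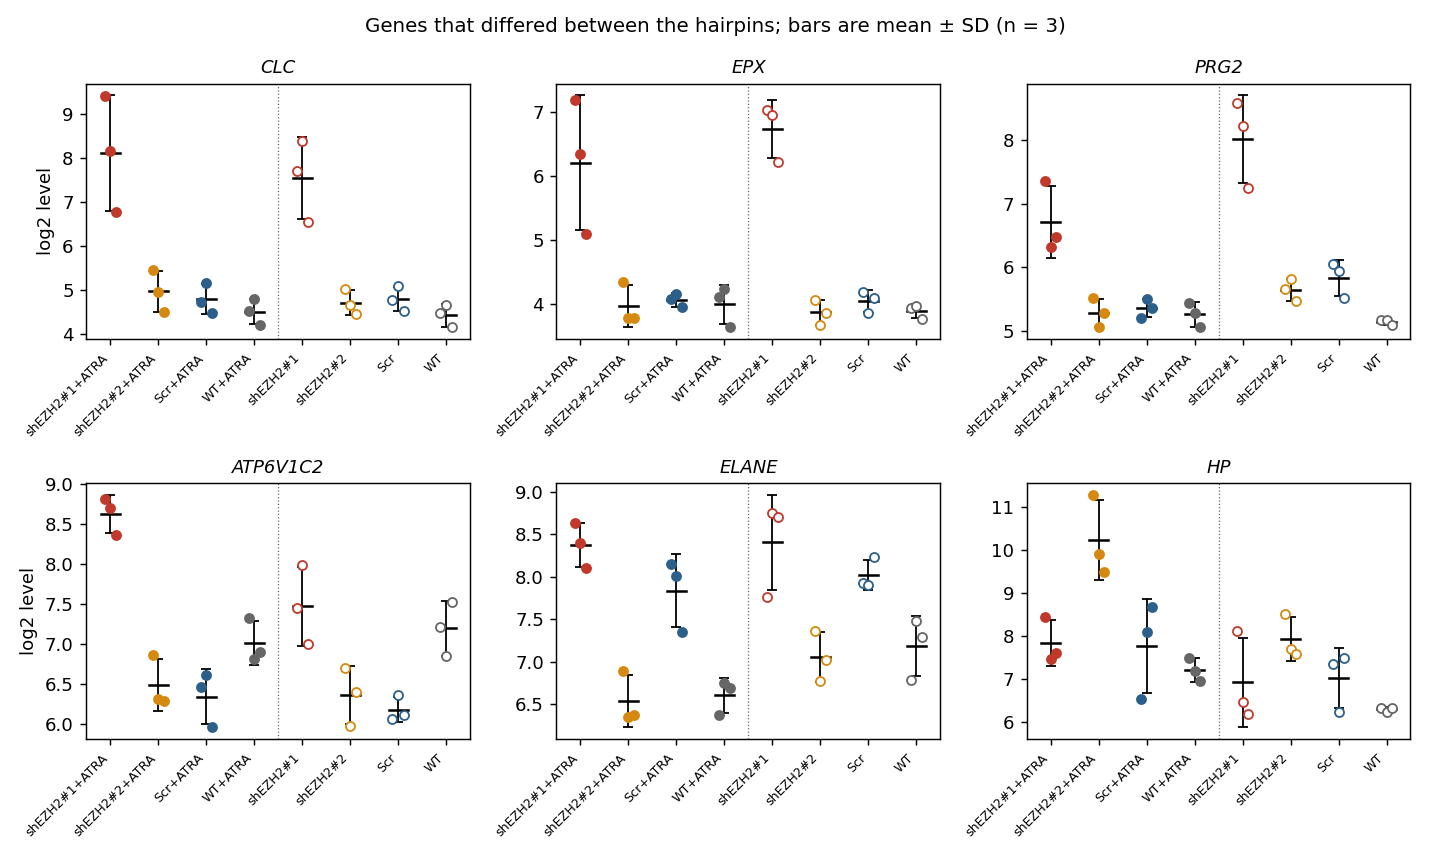
Log2 level on each array for 6 genes in the 8 groups of the knockdown experiment, with ATRA (filled) left of the dotted line and without (open) right of it, and bars for mean ± SD of 3 arrays. CLC, EPX and PRG2 are higher in shEZH2#1+ATRA than in shEZH2#2+ATRA and Scr+ATRA, and ATP6V1C2 is highest in shEZH2#1+ATRA. ELANE is higher and HP lower in shEZH2#1+ATRA than in shEZH2#2+ATRA.

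The same hairpin was compared with Scr without ATRA on 6 arrays that the comparison above did not use. Both comparisons used cells with the same shRNAs and took the spread from the same fit, so their agreement is not independent. Any other lasting difference between the transduced cells would enter both and was not tested. There 447 genes were called (6.07%), 381 higher (5.17%) and 66 lower (0.896%), and 118 genes were called in both comparisons, all in the same direction. These are 31.6% of the calls with ATRA and 26.4% of those without. The sign without ATRA was the same for 244 of the 252 higher and 108 of the 122 lower genes. The count without ATRA moved with single arrays: leaving out 1 Scr array gave 88 (replicate 1), 91 (replicate 2) or 1898 calls (replicate 3). Of the 3 Scr arrays 2 are of high median. Without the high-median arrays 1 Scr array is left, so no count is given for that setting. The cause of these moves was not tested. EZH2 fell by 1.09 without ATRA, with 9.13, 9.20 and 9.49 against 10.26, 10.44 and 10.39. Genes called in both included SUCNR1 (1.86 with ATRA and 1.98 without), APOBEC3B (1.80 and 1.68), NPC2 (1.77 and 0.92), CLEC4D (1.71 and 1.93), ATP6V1C2 (2.28 and 1.30) and CD109 (0.99 and 1.60). P2RY13 (2.32 and 0.23), ITGAM (1.60 and 0.33), IFI6 (1.56 and 0.40) and ASNS (-0.86 and 0.12) were called with ATRA only, and for none of these was the difference between the conditions past the threshold (adjusted p = 0.303, 0.429, 0.467 and 0.187).

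Whether the shEZH2#1 difference itself changed with ATRA was tested with an interaction term. Of 7367 genes 1 was called (0.0136%), at an unadjusted p under 0.05 181 terms were positive and 439 negative, and 9 genes below the level bound passed the p and fold thresholds. The called gene, RGS16, an inhibitor of G protein signaling, stood at 6.89, 7.78 and 7.66 with shEZH2#1+ATRA, against 8.72, 8.68 and 8.05 with Scr+ATRA. Without ATRA it stood at 9.00, 9.15 and 9.32 with shEZH2#1, against 8.43, 8.40 and 9.12 with Scr. It was lower with the hairpin in the presence of ATRA, and overlapped between the groups without ATRA (interaction -1.54, SE 0.29, adjusted p = 0.0309), and 7 of the 12 single-array omissions ended the call. PTGES, the synthase of prostaglandin E2, had the largest term. It stood at 9.54, 9.59 and 10.08 with shEZH2#1+ATRA, against 6.76, 6.72 and 6.17 with Scr+ATRA, and without ATRA at 5.63, 5.62 and 5.49 with shEZH2#1, against 5.68, 5.78 and 5.76 with Scr (interaction 3.35, SE 0.43, adjusted p = 5.58e-05). The hairpin difference was thus 3.19 with ATRA and -0.16 without. SCUBE1, a secreted and membrane-bound EGF-repeat protein, read 7.64, 7.64 and 7.86 with shEZH2#1+ATRA against 6.24, 6.26 and 5.94 with Scr+ATRA (interaction 1.44, adjusted p = 5.58e-05). FBP1, an enzyme of gluconeogenesis, read 6.83, 6.29 and 7.20 against 4.71, 5.51 and 4.69 (interaction 1.99, adjusted p = 5.58e-05). ITGA6, the integrin alpha 6 chain, and LILRA5, an activating leukocyte receptor, had interactions of 1.96 and 2.43. The terms of PTGES and SCUBE1 passed in all 24 alternatives run and that of FBP1 in 23. With shEZH2#2+ATRA, the log2 fold change of PTGES against Scr+ATRA was 0.95 (adjusted p = 0.116) and that of LILRA5 2.82 (adjusted p = 1.28e-05).

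**Figure D5:**
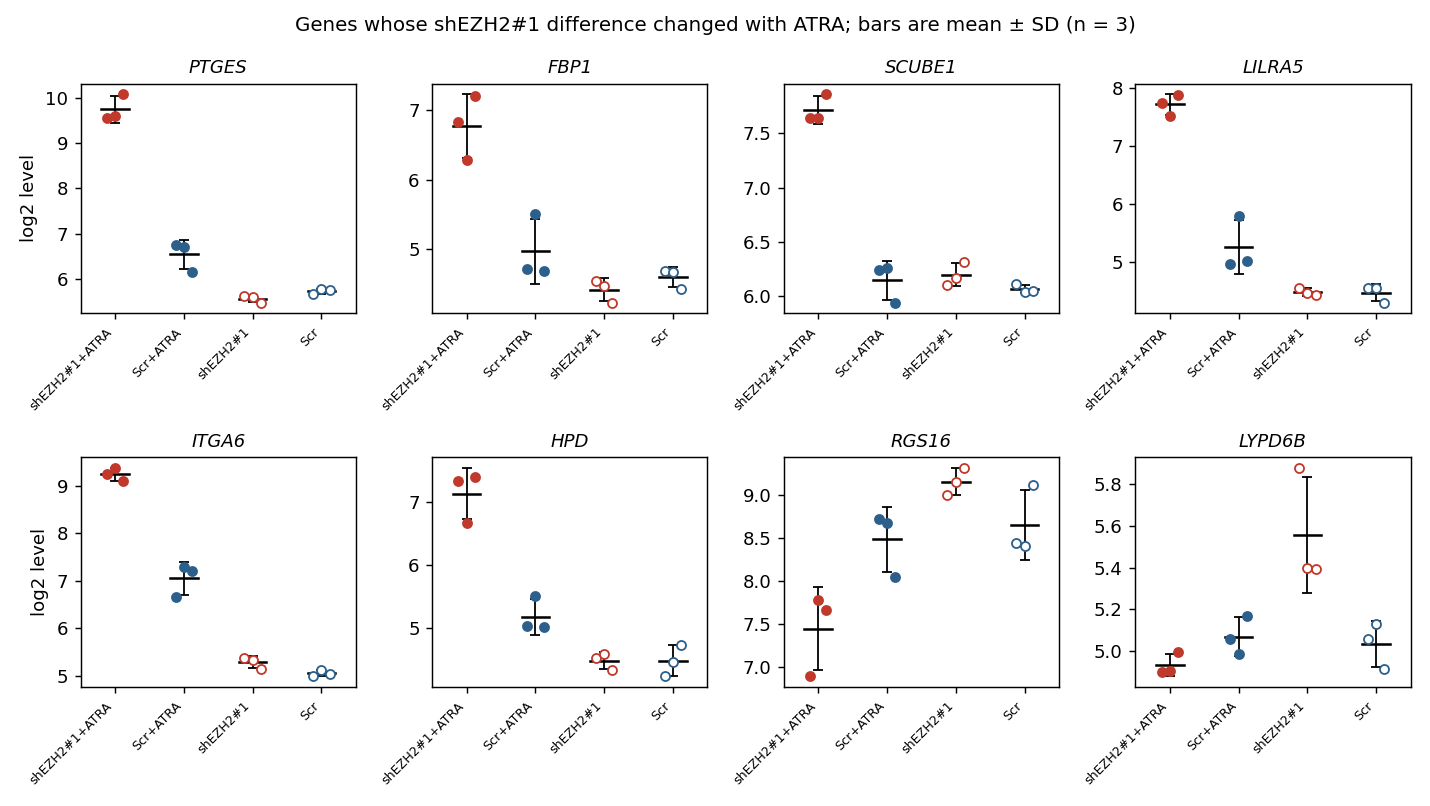
Log2 level on each array for 8 genes of the interaction test in shEZH2#1+ATRA, Scr+ATRA, shEZH2#1 and Scr cells, with bars for mean ± SD of 3 arrays. For PTGES, FBP1, SCUBE1, LILRA5, ITGA6 and HPD only the shEZH2#1+ATRA arrays stand high, while RGS16 is lowest there.

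Untransduced cells with ATRA gave a second control. Like Scr+ATRA replicate 3, WT+ATRA replicate 3 is an array of high median (5.47) and high small nucleolar RNA level (8.06). No result of this comparison without that array is given here. Against WT+ATRA 281 genes were called (3.81%), 145 higher (1.97%) and 136 lower (1.85%), and 135 of the 374 were also called there in the same direction. EZH2 was at 9.78, 10.22 and 10.33 in WT+ATRA, and the log2 fold change was -1.07 (adjusted p = 6.78e-05). ITGAM (1.26), CD36 (1.94), NPC2 (1.47), IFI6 (1.58) and BPI (1.90) were higher than in WT+ATRA at adjusted p-values of 0.00958, 0.00406, 9.43e-05, 0.000539 and 0.0169. Of 78 named genes that passed against Scr+ATRA, 49 also passed against WT+ATRA, 27 did not and 2 had the opposite sign. SERPINB10 (1.36), P2RY13 (1.38), THBS1 (1.34), SUCNR1 (0.75) and PECAM1 (1.00) were among the 27, with adjusted p-values of 0.109, 0.0767, 0.0987, 0.441 and 0.078. So were FCER1G (0.61), CD68 (0.34), TNFSF13B (0.62), BCL2 (-0.54), E2F5 (-0.63), WDR35 (-0.38), RIDA (-0.35) and SPNS3 (-0.06), at adjusted p-values of 0.382, 0.487, 0.229, 0.383, 0.0901, 0.42, 0.677 and 0.964. SLCO4C1 (1.23), CYTIP (0.61) and TLE4 (0.28) also shrank by over 1.5 times, while the sterol genes HMGCS1 (0.99), LSS (0.89) and SCD (0.87) kept their size but did not pass. CD109 and ODC1 had the opposite sign against WT+ATRA, with -0.33 (adjusted p = 0.458) and -0.02 (adjusted p = 0.97).

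Genes above the level bound were ranked by their correlation with EZH2 over the 8 group means of the knockdown experiment. The top of so long a ranking over 8 points is high by selection, and whether it exceeds chance was not tested. The highest Pearson correlations were those of ZNF37BP (0.96), ZFAS1 (0.93), DCUN1D4, ZC3H8 and CENATAC, which describe 8 means of 3 arrays each that differ in hairpin and in ATRA. ZNF37BP, a zinc finger pseudogene, stood at 7.52, 7.26 and 7.36 with shEZH2#1+ATRA, against 8.25, 7.97 and 8.29 with Scr+ATRA (log2 fold change -0.79, adjusted p = 0.00484).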

How the data were processed

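Each sample's total RNA was hybridised to 1 Affymetrix array (Human Gene 1.0 ST). Per the study's methods, the authors ran GC-RMA within Partek Genomics Suite and then took out effects of batch and date. Software versions and the makeup of the batches were not given in the sources used here. Values as deposited by the authors were taken as log2 from their range (3.18 to 14.5), since the scale is not stated beside them. No identical pair of arrays was found among the 42.

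Of 33297 probe sets, 19460 had 1 gene symbol, 1754 several and 12083 none, and 19429 matched RefSeq. The brightest probe set stood for each of 18417 genes. Means of 14 groups were fitted in R 4.3.3 by the functions lmFit and eBayes of limma 3.58.1, leaving 28 residual degrees of freedom, with Benjamini-Hochberg adjustment over all genes, and the script was tested on simulated data. The p-values measure the spread between biological triplicates after the authors' correction. Replicate numbers were shared by groups: deviations of same-numbered arrays correlated at 0.38, 0.12 and 0.41 between shEZH2#1+ATRA and shEZH2#2+ATRA, so these were also fitted with the number as a block, which called 29 genes in place of 33.

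Genes were named by rule: EZH2, the 15 largest rises and 15 largest falls without overlap, up to 4 called members of each of 29 gene lists (all where 5 or fewer were called), the genes named in the study, the calls of the interaction and hairpin comparisons, and the 5 genes most like EZH2. Others, among them CLC, EPX, PRG2, CCNA1, CR1, PTGES and other genes below the level bound, further list members, the sequence motifs and the families of the closing section, were chosen after their values were seen. The comparison, its lists and tests were chosen with earlier results of these data known. Alternatives changed the arrays fitted, the block, the filters, the scaling, the probe set rule, the test and the control. Arrays of inhibitor-treated cells entered the fit for the spread and are not described here.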

Additional observations from a re-analysis of the deposited data

Results flagged for a closer look

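For 10 genes the shEZH2#1 difference with ATRA differed from that without ATRA by a test of the difference itself (limma interaction term, adjusted over 18417 genes, 3 arrays in each of the 4 groups). RGS16 (-1.54, adjusted p = 0.0309) is the 1 gene above the level bound. PTGES (3.35), FBP1 (1.99) and SCUBE1 (1.44) had the smallest adjusted p, 5.58e-05 each. LILRA5 had 2.43 (adjusted p = 0.0332), ITGA6 1.96 (0.0332), HPD, an enzyme of tyrosine breakdown, 1.94 (0.0274), PLB1, a phospholipase, 0.98 (0.0274), LYPD6B -0.66 (0.0447) and CYB5R2, a cytochrome b5 reductase, 0.55 (0.0332). The calls of RGS16, HPD and PLB1 were lost without any of 7 single arrays, those of CYB5R2 and LYPD6B without any of 8, and those of ITGA6 and LILRA5 without any of 9. Of the Scr arrays without ATRA, 2 of 3 are of high median. Without the high-median arrays 1 of these Scr arrays is left, so no count of terms is given for that setting.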

How the results depend on the processing

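The fall of EZH2 was called in every alternative but an unpaired t-test after Benjamini-Hochberg adjustment (-0.96, adjusted p = 0.234, range over the alternatives 1.95e-06 to 0.234). It ran from -1.03 to -0.82 without single arrays. The study names the unpaired t-test as its general test. For its arrays it describes false discovery rate testing over the conditions, so the t-test used here is not its array method. The 374 calls became 193 when only the arrays compared were fitted, 135 with the 24 knockdown arrays, and 246 after centring on array medians (79.7% higher, against 67.4%). They became 765 by that t-test unadjusted, 0 after its adjustment, and 148 to 494 without single arrays. With the array median as a covariate 49.8% of 486 calls were higher. In this comparison same-numbered arrays correlated at -0.33, 0.02 and -0.35, so the numbers do not pair them, and the replicate block gave 354 calls, 332 of them shared. Of 78 named genes none changed sign except against untransduced cells (CD109 -0.33, ODC1 -0.023), and the t-test after adjustment called none of them. The interaction had 0 calls with only the arrays compared, with the 24 arrays and after centring. It had 10 with no expression filter, 2 after quantile normalization, 8 with the covariate, 1 with the block and 0 to 74 without single arrays. Between hairpins the 33 calls became 11 with only the arrays compared, 14 with the 24 arrays, 72 with no expression filter, 20 after centring, 72 with the covariate (52.8% higher, against 72.7%), 77 without the high-median arrays, 176 by the t-test unadjusted and 0 adjusted, and 19 to 43 without single arrays, while quantile normalization gave 41 (53.7% higher). Without ATRA the 447 calls became 0 with only the arrays compared, 111 with the 24 arrays, 278 at a fold of 1.5, and 218 with the covariate (54.6% higher, against 85.2%). They became 0 by the adjusted t-test and 88 to 1898 without single arrays, and the block gave 363. The cause of these moves was not tested.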

Other observations

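Members of 3 further gene families, picked after their values were seen, were higher with shEZH2#1+ATRA than with Scr+ATRA, and no member above the level bound was called lower. Of 5 metallothionein genes above the bound, which encode small metal-binding proteins, 3 rose: MT1G by 1.15 (adjusted p = 0.00141), MT1F by 0.88 (adjusted p = 0.000839) and MT2A by 0.86 (adjusted p = 0.000162). Of 4 galectin genes above the bound 3 rose, with LGALS12 at 1.46 (adjusted p = 0.000172) and LGALS8 at 0.97 (adjusted p = 0.0385) beside LGALS1. Of 8 annexin genes 3 rose, ANXA5 by 0.47 (adjusted p = 0.0387) beside ANXA3 and ANXA1. The medians over members above the bound were 0.86, 1.21 and 0.44, against 0.06 over all genes above it. Of all genes above the bound 3.42% were called higher. The families were picked for these values, so their counts are a description only.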
